A study of Mus musculus with 12 samples.

Results

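The genes described here are the metallothioneins Mt1 and Mt2, the metal-sensing transcription factor Mtf1, the zinc importers Slc39a8, Slc39a14, Slc39a6, Slc39a10 and Slc39a13, and the zinc transporters Slc30a1 and Slc30a5, 10 of 18194 genes named on the array. They were chosen by gene symbol, through the platform's annotation of the probe sets, with their intensities in DEX and vehicle arrays at 6 and 24 hrs already known. The study asked how a pharmacological glucocorticoid dose changes transcription in growth plate chondrocytes. The cells came from tibiae, femurs and humeri of E15.5 embryos of CD1 mice and were grown as monolayers. They received 100 nM dexamethasone (DEX), a synthetic glucocorticoid, or DMSO, the solvent of DEX, as vehicle, and RNA was taken after 6 or 24 hrs. Both treatments were given in fresh medium with ascorbic acid and beta-glycerophosphate. Each of the 4 groups (vehicle at 6 hrs, DEX at 6 hrs, vehicle at 24 hrs and DEX at 24 hrs) had 3 arrays, numbered 1, 2 and 4, which came from independent experiments according to the methods.

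Metallothioneins are small cysteine-rich proteins that bind zinc, copper and cadmium, and their genes are classical targets of both metals and glucocorticoids. Free zinc binds Mtf1, which then activates genes with metal response elements, among them the metallothioneins and the exporter Slc30a1. Carriers of the Slc39 (ZIP) family move zinc into the cytosol, and those of the Slc30 (ZnT) family move it out of the cell or into organelles. In cartilage, zinc is needed by matrix proteases and by alkaline phosphatase, and Slc39a8 together with Mtf1 is known as a route to protease expression in articular chondrocytes.

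Promoter windows are shown first because Mt1 and Mt2 share a known type of regulatory element, so that their letters can be read beside the responses. RefSeq promoters (GRCm38.p6, 250 bases before to 50 after a start site, on the gene's strand) were on hand for 8 of the 10 genes, in 10 windows, and none was used for Slc39a14 and Slc39a6. The windows of Mt2 (chr8:94172368-94172667, plus strand), Mt1 (chr8:94178839-94179138, plus strand), Slc30a1 (chr1:191906531-191906830, plus strand) and the downstream window of Slc39a8 (chr3:135825407-135825706, plus strand) are printed 5′ to 3′. Capitals mark matches, on either strand, to the metal response element core TGCACNC or TGCGCNC.
Mt2: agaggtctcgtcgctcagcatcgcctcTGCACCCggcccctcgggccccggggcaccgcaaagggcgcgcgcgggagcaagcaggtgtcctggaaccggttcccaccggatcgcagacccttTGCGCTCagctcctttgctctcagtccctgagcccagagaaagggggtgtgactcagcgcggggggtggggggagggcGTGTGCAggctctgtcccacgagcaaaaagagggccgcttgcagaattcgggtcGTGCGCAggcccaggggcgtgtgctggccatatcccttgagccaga
Mt1: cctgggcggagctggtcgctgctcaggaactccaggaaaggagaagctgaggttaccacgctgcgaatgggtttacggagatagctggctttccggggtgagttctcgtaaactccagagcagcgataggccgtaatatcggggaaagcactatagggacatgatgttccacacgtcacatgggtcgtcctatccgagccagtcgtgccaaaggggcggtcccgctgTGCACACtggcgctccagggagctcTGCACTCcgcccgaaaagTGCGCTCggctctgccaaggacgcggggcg
Slc30a1: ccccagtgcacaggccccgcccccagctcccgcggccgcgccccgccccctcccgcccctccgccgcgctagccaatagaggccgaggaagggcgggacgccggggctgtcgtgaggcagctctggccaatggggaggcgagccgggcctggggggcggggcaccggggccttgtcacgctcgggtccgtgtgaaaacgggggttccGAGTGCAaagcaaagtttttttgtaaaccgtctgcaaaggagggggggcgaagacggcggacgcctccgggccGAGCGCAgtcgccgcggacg
Slc39a8: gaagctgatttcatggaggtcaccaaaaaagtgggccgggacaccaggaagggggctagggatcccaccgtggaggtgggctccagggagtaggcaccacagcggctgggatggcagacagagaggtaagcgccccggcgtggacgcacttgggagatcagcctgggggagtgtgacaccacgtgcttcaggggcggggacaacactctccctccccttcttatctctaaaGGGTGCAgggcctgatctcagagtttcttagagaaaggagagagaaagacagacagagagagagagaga

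The metallothionein windows held the most matches, 4 in Mt2 and 3 in Mt1, where 25.7% of all 32851 promoters held at least 1, 1.97% at least 3 and 0.517% at least 4. In Mt2 the first bases of the matches lay at -223, -128, -50 and 4 from the start site of the window, and in Mt1 at -23, 2 and 20. Slc30a1 had 2 matches (7.11% of promoters had at least 2), at -43 and 30. Slc39a8, Slc39a13 and Slc30a5 had 1 each, whereas Mtf1, both Slc39a10 windows and the upstream Slc39a8 window had 0. The full palindromic glucocorticoid response element, AGAACA and TGTTCT with 3 bases of any kind between them, was in 0 of the 10 windows and in 0.00913% of all promoters. Its core ACANNNTGT, found in 6.85% of all promoters, occurred once in Mt1 (at -92) and once in Slc30a5 (at -192). The antioxidant response element core TGACNNNGC, in 12.4% of all promoters, was present in Mt2, Slc30a1, Slc30a5, Slc39a13 and the upstream Slc39a8 window. No match of any motif overlapped one of another motif in these windows. A match of letters is not evidence of binding. In the RefSeq annotation Mt2 (chr8:94172618-94173567) ends 5315 bases before Mt1 (chr8:94178883-94180327) begins, and of the region between them the windows hold only the first 44 bases of the Mt1 window. A window's start site need not be the outermost start of the annotated gene. It lay 206 bases downstream of that in Mt1, so that all 3 Mt1 matches fall inside the annotated gene, 84 in Slc30a1, and 8397 and 8775 in the pair of Slc39a8 windows, against 0 in Mt2.

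**Figure D1:**
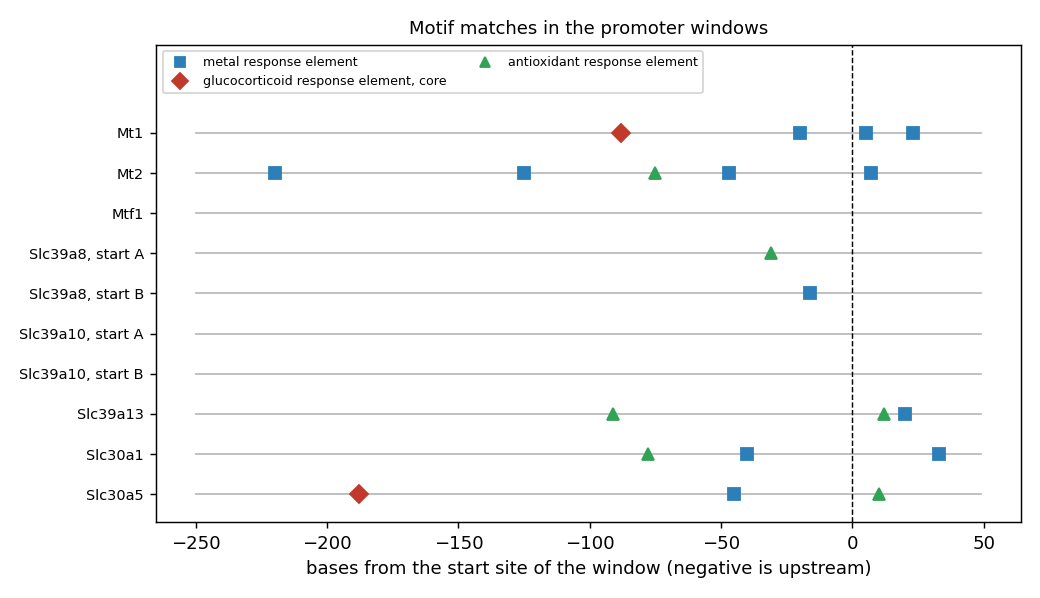
Motif matches by distance from the start site of the window (bases, dashed line at 0) in the 10 promoter windows, with a marker at the middle of each match on either strand and starts A and B in order of coordinate. Mt2 and Mt1 carry 4 and 3 matches to the metal response element, and the glucocorticoid response element core appears only in Mt1 and Slc30a5.

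All values below are GC-RMA intensities of single probe sets as the authors deposited them, on a linear scale, and they cannot be set against those of another probe set. A probe set was called expressed when its mean reached 50 in at least 1 group. The 10 genes had 24 probe sets, of which 18 were expressed, at least 1 for every gene, against 20897 of 45101 on the whole array. Where a gene had several, the brightest one on average stands for it. Fold changes are differences of mean log2 intensity from limma, with its moderated SE, over n = 3 arrays per group. As the genes were chosen with the DEX comparisons known, those values are descriptions without a test. The arrays of replicates 1 and 2 at 6 hrs were hybridized together on the third of 4 hybridization days and stood apart. Their control probe sets for the 3′ and the 5′ end of Gapdh differed by a log2 value of 0.486 to 0.743, against -0.331 to -0.222 on the 8 other arrays. All 11 chondrocyte markers were expressed, and 7 of 8 endothelial markers were not. Of 10 macrophage markers 6 were expressed (Cd68, Csf1r, Adgre1, Lyz2, Cd14 and Mrc1), while Itgam, Ptprc, Fcgr3 and Tyrobp were not.

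The metallothioneins were higher with DEX at both times, on every array. Mt1 (probe set 1422557_s_at) had intensities of 147, 223 and 329.7 in vehicle at 6 hrs and 1542, 1778 and 4790.2 with DEX for replicates 1, 2 and 4. At 24 hrs it had 419.9, 583 and 438 in vehicle and 1641, 2109.8 and 1906 with DEX. The lowest DEX array thus lay above the highest vehicle array of both times, and replicate 4 at 6 hrs was the highest of all. The difference was a log2 value of 3.42 (SE 0.41), 10.7-fold, at 6 hrs and 1.98 (SE 0.41), 3.95-fold, at 24 hrs. Vehicle was lower at 6 hrs (233 ± 91.8, SD) than at 24 hrs (480.5 ± 89.4), while the DEX means were 2703 ± 1811 and 1886 ± 235. The suffix _s_at marks probes that match more than 1 transcript, so signal from a related metallothionein cannot be told apart. The other Mt1 probe set, 1451612_at, read 15.8 to 31.1 on all arrays and was not expressed. Since RNA of whole cultures was measured, fewer cells of a type and less RNA per cell cannot be told apart in any of these values.

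Mt2 (1428942_at) had 1283, 1574 and 901 in vehicle at 6 hrs, and 4217, 4754 and 7952 with DEX. At 24 hrs vehicle gave 1017, 953 and 1016, and DEX gave 2869.8, 3606 and 3435. Again no DEX array reached down to a vehicle array, and the vehicle arrays at 24 hrs lay within a narrow range. The difference was 2.15 (SE 0.26), 4.44-fold, at 6 hrs and 1.72 (SE 0.26), 3.31-fold, at 24 hrs. Replicate 4 gave most of the spread at 6 hrs. Its pair difference was 3.14 on the log2 scale, against 1.72 and 1.60 for replicates 1 and 2, the arrays of the third hybridization day. Without that day the Mt2 fold at 6 hrs was 8.82 and the Mt1 fold 14.5.

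Slc39a8 (ZIP8), a plasma membrane carrier of zinc, manganese and cadmium, was the zinc carrier with the largest DEX difference among the 7 described and the 10 further expressed ones. By 1416832_at it had 139, 108 and 77.3 in vehicle at 6 hrs and 635, 580.1 and 433 with DEX. At 24 hrs it had 57.2, 82.1 and 39.9 in vehicle and 442, 681 and 574 with DEX. The DEX arrays of both times shared a range, and 1 of the 3 vehicle arrays at 24 hrs lay within the range of those at 6 hrs. The difference was 2.37 (SE 0.30), 5.16-fold, at 6 hrs and 3.28 (SE 0.30), 9.74-fold, at 24 hrs. The second probe set, 1448482_at, read 10.4, 1.84 and 31.4 in vehicle and 24.8, 20.8 and 157 with DEX at 6 hrs, so that its groups overlapped there. At 24 hrs it read 23.2, 35.7 and 18.0 in vehicle and 239, 296 and 244 with DEX, a difference of 3.39 (SE 0.95), 10.5-fold. Both probe sets placed every DEX array above every vehicle array at 24 hrs. However, the vehicle means of 1448482_at, 14.5 at 6 hrs and 25.6 at 24 hrs, lay below the cut of 50. It counted as expressed only through its DEX groups (means 67.4 and 259.7), so the filter itself favoured a higher DEX value. Its 10.5-fold rests on low vehicle values, and its shared direction adds little to that of 1416832_at.

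**Figure D2:**
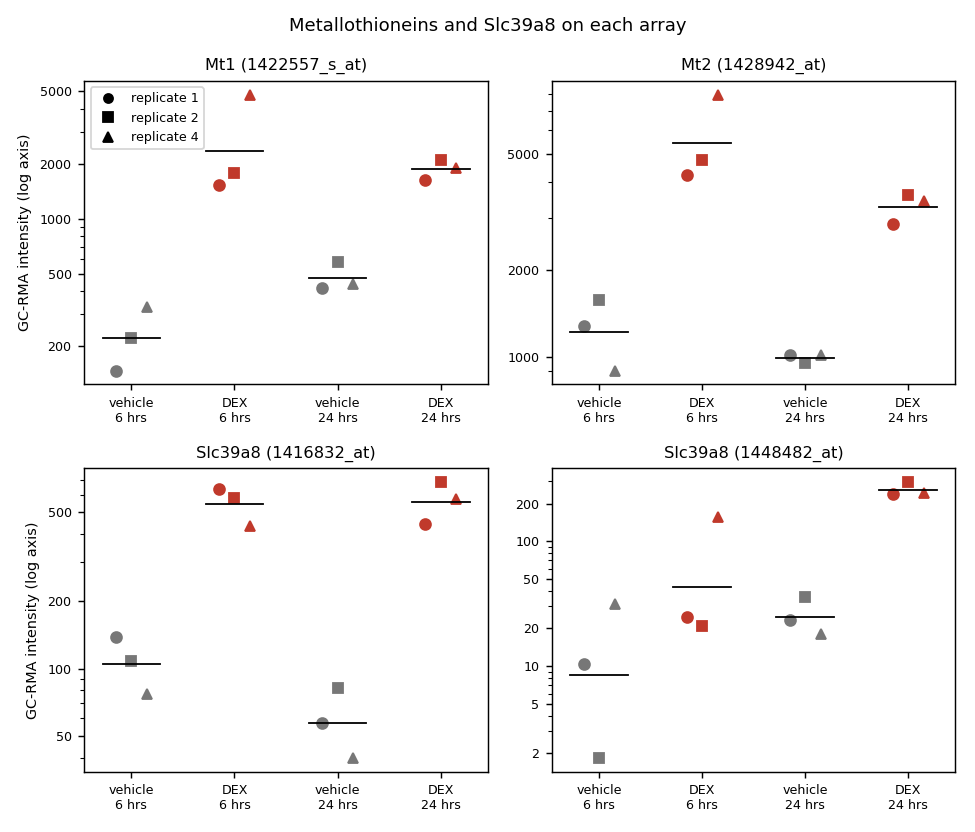
GC-RMA intensity (log axis) of Mt1, Mt2 and both Slc39a8 probe sets on each of the 12 arrays, with a symbol per replicate number and a line at the geometric mean of the group. DEX arrays (red) lie above vehicle arrays (grey) in every panel except for Slc39a8 1448482_at at 6 hrs, where 20.8 and 24.8 with DEX fall below 31.4 in vehicle.

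Mtf1, the sensor upstream of the metallothioneins, differed little. By 1418333_at it read 108, 100.0 and 93.7 in vehicle and 126, 138 and 143 with DEX at 6 hrs, a difference of 0.43 (SE 0.16), 1.35-fold, with no overlap. At 24 hrs the groups overlapped, with 109.9, 134 and 118 in vehicle and 128, 125 and 97.1 with DEX. The other 2 expressed Mtf1 probe sets did not share the 6 hrs difference. 1428979_at gave -0.04 (SE 0.17) and 1429170_a_at gave -0.54 (SE 0.33), and the median over all 3 was -0.04. The direction for Mtf1 at 6 hrs therefore depended on the probe set.

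Slc39a10 was the gene of the 10 whose DEX arrays all lay below the vehicle arrays, which they did at 24 hrs. Of all expressed probe sets 10.9% lay so at that time, a share near 1 of 10. This carrier is a close relative of Slc39a6, with which it forms a complex at the plasma membrane. By 1433751_at vehicle arrays at 24 hrs read 312, 291 and 288 and DEX arrays 202, 126 and 167, a difference of -0.87 (SE 0.40), 1.83-fold lower, without overlap. The second probe set, 1439041_at, went the same way, from 188, 178 and 159 to 144, 81.7 and 87.2, with -0.79 (SE 0.24). At 6 hrs the first probe set read 1042, 937 and 396 in vehicle and 902, 946 and 404 with DEX, where the replicate number, not the treatment, separated high from low arrays. The second probe set read 184, 201 and 215 in vehicle and 132, 149 and 212 with DEX at 6 hrs, lower in 3 of 3 pairs though the groups overlapped, with -0.31 (SE 0.24). Slc39a6, by 1424674_at, overlapped between DEX and vehicle at both times, with differences of -0.10 (SE 0.30) and -0.05 (SE 0.30).

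Slc39a14 (ZIP14), a carrier of zinc, iron and manganese known from the acute phase response, was somewhat higher with DEX in every pair. By 1427035_at its arrays read 1278, 1372 and 684 in vehicle and 1861, 1632 and 1076 with DEX at 6 hrs, and 682, 849 and 656 against 868, 1012 and 798 at 24 hrs. The pair differences ran from 0.25 to 0.65 on the log2 scale, yet the groups overlapped at both times. The fitted differences were 0.48 (SE 0.29) and 0.29 (SE 0.29). A second probe set, 1425649_at, was higher in 3 of 3 pairs at 6 hrs but in only 1 of 3 at 24 hrs.

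The other carriers differed by little between DEX and vehicle. Slc39a13 (ZIP13), whose loss causes a form of Ehlers-Danlos syndrome, differed by 0.02 (SE 0.25) at 6 hrs and 0.08 (SE 0.25) at 24 hrs. Slc30a1 (ZnT1), the zinc exporter of the plasma membrane, read 175, 157 and 172 in vehicle and 191, 227 and 185 with DEX at 24 hrs by 1436164_at, a difference of 0.25 (SE 0.15). At 6 hrs its difference was -0.16 (SE 0.15), and the groups overlapped. Slc30a5 (ZnT5), which loads zinc into the secretory pathway and onto alkaline phosphatase, read 699.6, 667 and 737 in vehicle and 848, 890.2 and 777 with DEX at 24 hrs, a difference of 0.26 (SE 0.22). By these brightest probe sets the 3 genes each had all DEX arrays above all vehicle arrays at 24 hrs, but by at most 1.19-fold. The second Slc30a1 probe set, 1422786_at, overlapped at 24 hrs, with 98.6, 78.7 and 82.5 in vehicle and 106, 90.7 and 101 with DEX. At 6 hrs its pair differences of 1.55, 0.19 and -0.81 did not share a direction.

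At 6 hrs, 4 of the 10 genes (Mt1, Mt2, Mtf1 and Slc39a8) had DEX arrays that all lay above the vehicle arrays, which was true of 3.04% of all expressed probe sets, and 0 lay wholly below, against 2.96% of all. At 24 hrs, 6 of the 10 did (Mt1, Mt2, Slc39a8, Slc39a13, Slc30a1 and Slc30a5), against 8.45% of all, and 1 of the 10 (Slc39a10) lay wholly below, against 10.9% of all. The genes were chosen with these comparisons known, so nothing is read from these shares. The median log2 difference over the 10 genes was 0.26 at both times, and over all probe sets tested it was -0.01 at 6 hrs and -0.03 at 24 hrs.

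**Figure D3:**
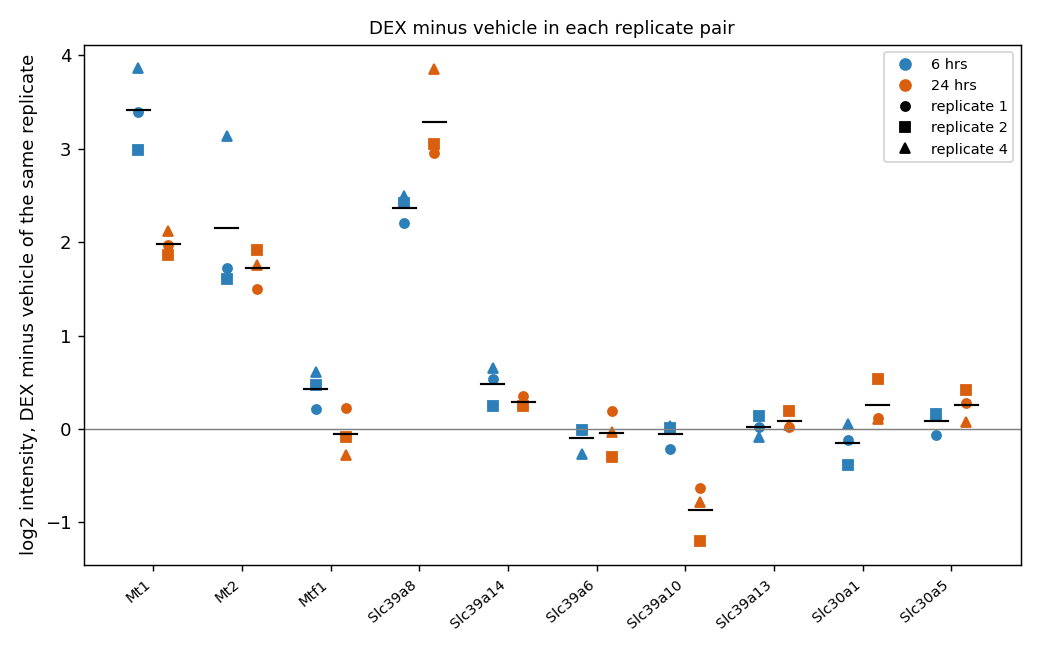
Log2 intensity of the DEX array minus the vehicle array of the same replicate number, for each of the 10 genes at 6 hrs (blue) and 24 hrs (orange), with a line at the mean of the 3 pairs. Mt1, Mt2 and Slc39a8 lie at 1.5 or above in every pair, Slc39a10 lies below 0 in all pairs at 24 hrs, and the other genes lie within 0.65 of 0.

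The DEX differences of 24 and 6 hrs were set against each other in the same fit. As these values come from the contrasts known when the genes were chosen, they too are descriptions without a test. For Mt1 the difference was smaller at 24 hrs by a log2 value of -1.44 (SE 0.58), and for Slc39a8 it was larger by 0.92 (SE 0.43). The Mt1 pair differences were 2.99 to 3.86 at 6 hrs and 1.86 to 2.12 at 24 hrs, and those of Slc39a8 were 2.20 to 2.49 and 2.95 to 3.85. Neither gene's ranges overlapped between the times, and by the brightest probe sets neither did those of Slc39a10 and Slc30a1. How many of all probe sets share such a gap was not counted, so nothing is read from it. For Mt2 the value was -0.43 (SE 0.37) and for Slc39a10 -0.82 (SE 0.57). Over the whole array limma's test called 0% of all probe sets for this difference (0 of 20897, with 758 at an unadjusted p under 0.05). Without the third hybridization day, with 1 pair left at 6 hrs, the values were -1.88 for Mt1 and -1.42 for Mt2.

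In vehicle alone, levels at 24 and 6 hrs were compared to see how these genes stood without DEX. By the brightest probe sets Slc39a10 had the largest difference, -1.30 (SE 0.40), followed by Mt1 at 1.10 (SE 0.41), Slc39a8 at -0.88 (SE 0.30) and Slc39a6 at -0.75 (SE 0.30). Slc39a14, Slc30a5 and Slc30a1 had -0.55 (SE 0.29), -0.54 (SE 0.22) and -0.50 (SE 0.15). As the vehicle values were known when the genes were chosen, these too are descriptions without a test. Over the whole array limma called 0.00957% of all probe sets for this difference, and 31.7% when vehicle replicate 4 at 6 hrs was left out. Without DEX replicate 4 at 6 hrs it called 14.2%. Leaving out 1 array moved Slc39a10 between -1.74 and -1.04, Mt1 between 0.81 and 1.39 and Slc39a8 between -1.14 and -0.62. Other expressed probe sets of the same genes gave different values. Slc39a10 had -0.19 (SE 0.24) by 1439041_at, and the sign was opposite for Slc39a8 by 1448482_at (1.54, SE 0.95), Slc39a6 by 1424675_at (0.41, SE 0.33), Slc30a1 by 1422786_at (0.42, SE 0.42) and Slc39a14 by 1425649_at (0.10, SE 0.24). The remaining Slc39a14 probe set, 1438490_at, had -0.77 (SE 0.54). Both vehicle means of Slc39a8 1448482_at, 14.5 at 6 hrs and 25.6 at 24 hrs, lay below the cut of 50. Its opposite sign therefore carries little weight. Over all probe sets the median was 0.13. Time and hybridization day cannot be told apart here, since no day held both times.

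Several of these levels differed at 6 hrs between the arrays of the third hybridization day and replicate 4, in DEX and vehicle arrays alike. Replicate 4 came from a separate experiment, so hybridization day and experiment cannot be told apart here. On the 4 arrays of the third day Slc39a10 (1433751_at) read 902 to 1042, against 396 and 404 for replicate 4 at 6 hrs, a log2 difference of 1.26. Slc39a6 (0.90), Slc39a14 (0.82) and Slc30a5 (0.60) were also higher on that day, and Slc39a13 was lower (-0.76). Mt1 was lower as well (-1.2), with 147 and 223 against 329.7 in vehicle and 1542 and 1778 against 4790.2 with DEX. Slc39a8 was higher by 1416832_at (0.58) and lower by 1448482_at (-2.81). At 6 hrs, however, only the DEX array of replicate 4 (157) read above 50 by 1448482_at. Counting only genes whose arrays did not overlap, with both treatments pooled, 4 of the 10 were higher on that day, against 27.4% of all probe sets. In the same count 1 was lower, against 33.5%. The DEX difference itself can make arrays overlap in that count, as it did for Mt1. Probe sets of the same gene could move apart. Slc39a6 read 2318 to 2622 on that day against 1199 and 1447 by 1424674_at, but 99.2 to 152 against 225 and 272 by 1424675_at. Slc39a10 likewise was lower on that day by 1439041_at (-0.38). Without that day, with 1 vehicle array left at 6 hrs, the vehicle difference between the times was -0.42 for Slc39a10, 0.53 for Mt1 and 0.08 for Slc39a14.

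**Figure D4:**
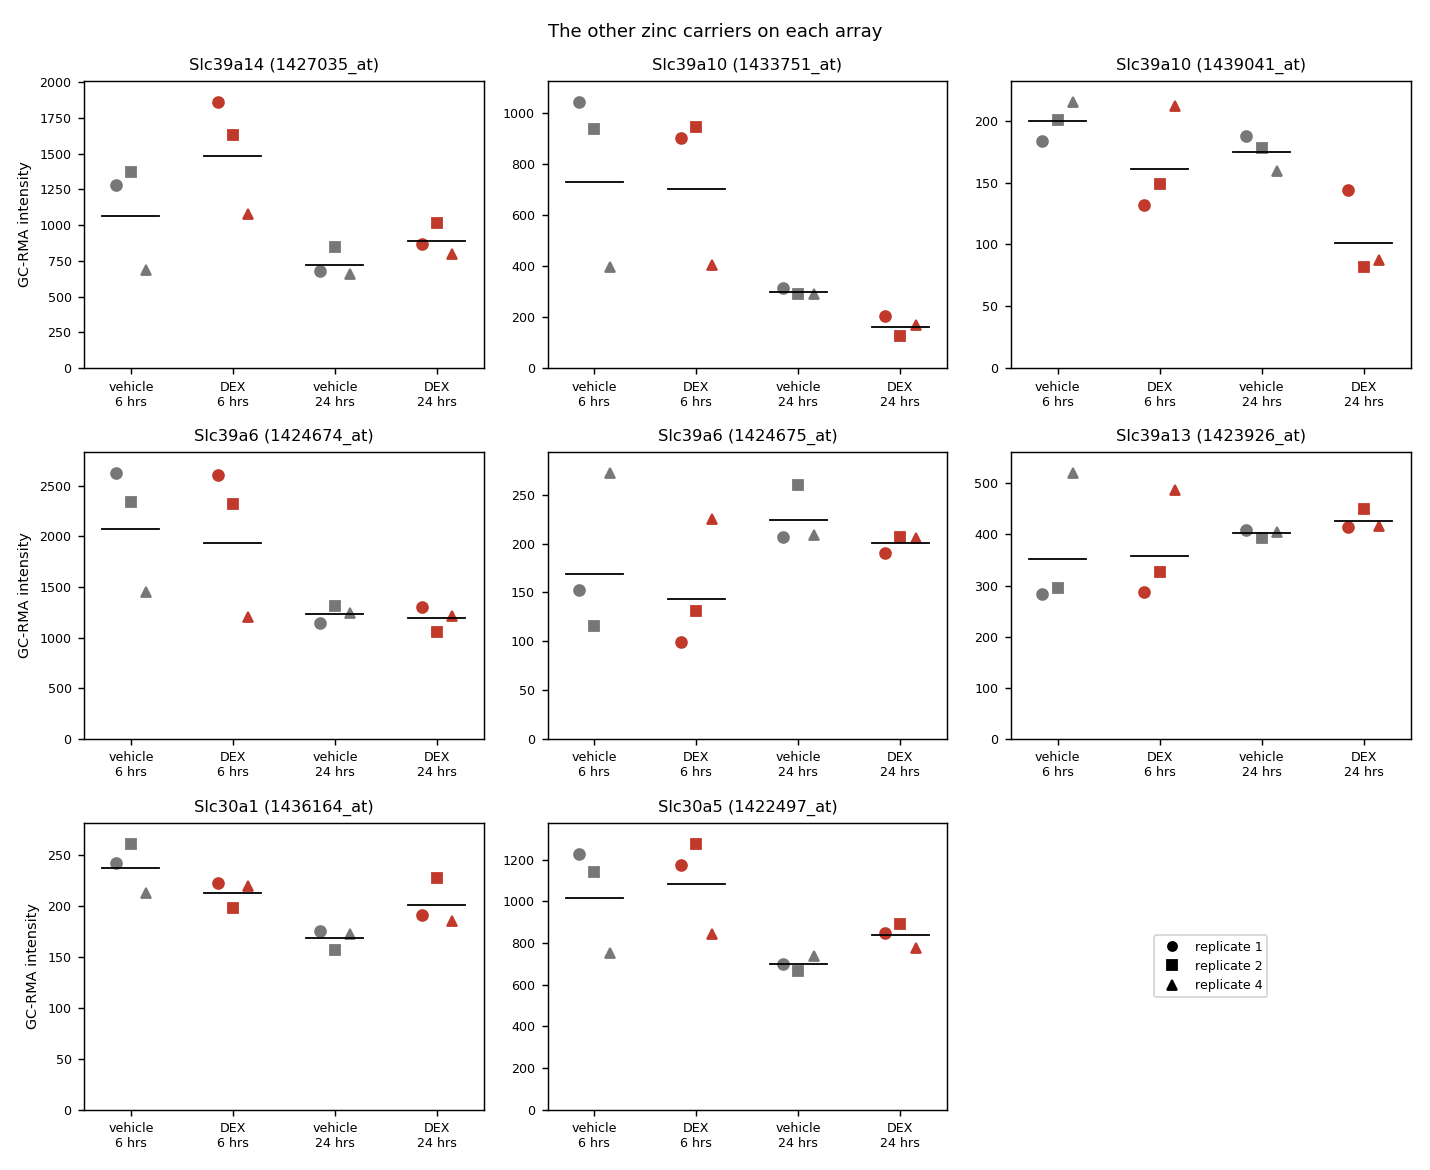
GC-RMA intensity (linear axis from 0) of the other zinc carriers on each array, with 2 probe sets each for Slc39a10 and Slc39a6, a symbol per replicate number and a line at the geometric mean of the group. At 6 hrs replicates 1 and 2, the arrays of the third hybridization day, lie apart from replicate 4 in both treatments for Slc39a10 1433751_at and Slc39a6, and at 24 hrs DEX arrays of Slc39a10 lie below vehicle.

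The rest of the zinc machinery gave no call. Of 20 other zinc carriers and metallothioneins, 10 were expressed, and Mt3, Mt4, Slc39a2, Slc39a4, Slc39a5, Slc39a12, Slc30a2, Slc30a8, Slc30a10 and Tmem163 were not. None of the 10 passed the test in either direction at 6 hrs, at 24 hrs or over both times, where 0.225%, 0.287% and 0.747% of all probe sets did (limma, lowest adjusted p 1.00). With the replicate block, where 0.904%, 2.15% and 3.2% of all passed, it was also none, with the lowest adjusted p at 0.334. Their log2 differences over both times ran from -0.13 (Slc39a1, SE 0.32) to 0.08, with a median of 0.01, beside -0.02 for all probe sets. Slc30a6, the partner of Slc30a5 in the secretory pathway, had 0.08 (SE 0.12), Slc39a9 had 0.08 (SE 0.14) and Slc30a4 had -0.06 (SE 0.11).

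Genes for iron, copper and manganese gave no call either. Of 19, 17 were expressed, Heph was not, and for Ftl1 no named probe set was on hand. Over both times they ran from -0.36 (Steap3, SE 0.57) to 0.21 (Cp, the copper enzyme ceruloplasmin, SE 0.23), with a median of -0.01 and the lowest adjusted p at 0.973. The transferrin receptor Tfrc had -0.27 (SE 0.13) and the ferritin heavy chain Fth1 had 0.17 (SE 0.18). With the replicate block none passed, with the lowest adjusted p at 0.187.

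Of the metal and oxidant stress genes, 8 of 9 were expressed (Slc7a11 was not), and 1 rose over both times, where 0.579% of all probe sets rose. This was Gclc, the catalytic subunit of the first enzyme of glutathione synthesis. By 1424296_at it read 263, 317 and 424 in vehicle and 535, 511 and 833 with DEX at 6 hrs, and 297, 272 and 223 against 457, 797 and 537 at 24 hrs. It was higher with DEX in 6 of 6 pairs, and the DEX and vehicle arrays did not overlap at either time. DEX lay wholly higher in 3.04% of all expressed probe sets at 6 hrs and in 8.45% at 24 hrs. The gene list was chosen with earlier results of these data known, which limits what the adjusted p of Gclc can show. The difference over both times was 1.02 (SE 0.19), 2.03-fold, with an adjusted p of 0.0405 in limma. The second probe set, 1455959_s_at, gave 0.93 (SE 0.15) with an adjusted p of 0.0163, again in 6 of 6 pairs. Without the third hybridization day the adjusted p of 1424296_at was 0.118 at a log2 difference of 1.06, and leaving out any other than vehicle replicate 4 at 6 hrs raised it to between 0.0511 and 0.115. With the replicate block it was 0.00761, and Gclc then also passed at 24 hrs (0.0294).

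The other stress genes did not pass, and 5 of the 7 had values below 0. Gclm, the regulatory subunit that pairs with Gclc, had -0.41 (SE 0.19) over both times. The heme oxygenase Hmox1 had -0.50 (SE 0.45) and the sulfiredoxin Srxn1 -0.41 (SE 0.21). The heat shock genes Hspa1a and Hspa1b, which cadmium and other metals induce, had 0.12 (SE 0.40) and 0.26 (SE 0.31). The median over the 8 genes was -0.26.

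**Figure D5:**
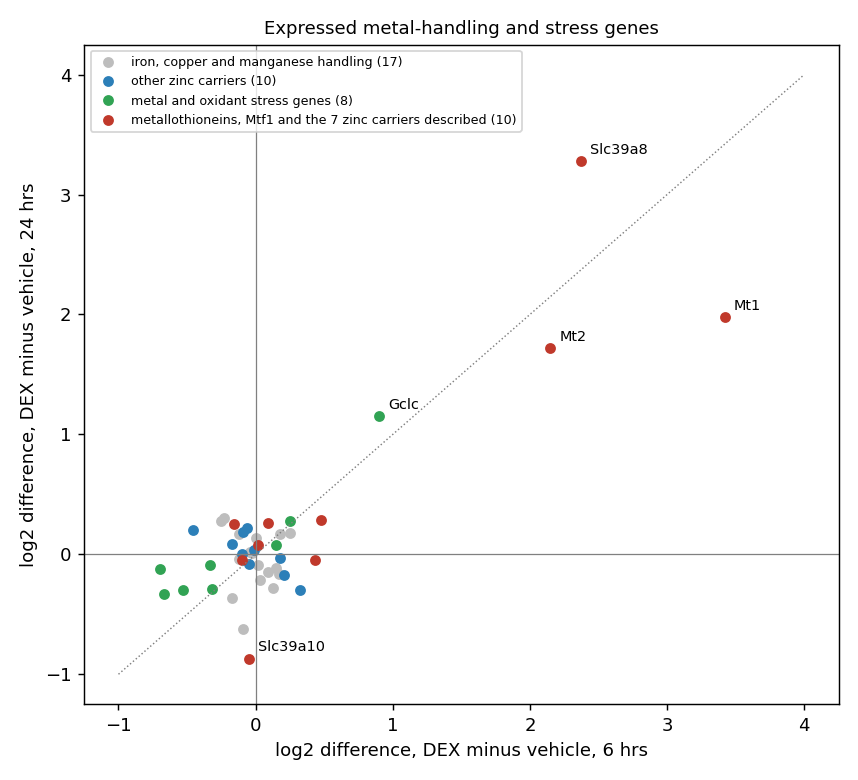
Log2 difference of DEX minus vehicle at 6 hrs (x axis) and at 24 hrs (y axis) for the expressed genes of each group, with the number of genes in the legend and a dotted line where both times are equal. Mt1, Mt2 and Slc39a8 lie at 1.72 or above at both times and Gclc at 0.90 and 1.15, while the other genes lie between -0.87 (Slc39a10 at 24 hrs) and 0.48 (Slc39a14 at 6 hrs).

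Among established glucocorticoid targets, 6 of 8 rose over both times (Zbtb16, Tsc22d3, Klf15, Per1, Fkbp5 and Klf9), where 0.579% of all probe sets rose, and Sgk1 (0.80, adjusted p = 0.176) and Dusp1 (0.52, adjusted p = 0.122) did not pass. With the replicate block all 8 passed, as did 3.2% of all probe sets. This list was chosen with earlier results of these data known, so nothing is read from these shares, and the values are descriptions. The 6 ranged from 1.47 (Per1, SE 0.11, adjusted p = 0.000122) to 4.68 (Klf15, SE 0.33, adjusted p = 0.00011). The metallothionein and Slc39a8 differences, 2.70 for Mt1, 1.94 for Mt2 and 2.83 for Slc39a8, lay within that range.

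The genes whose log2 intensity over the 12 arrays was most like that of Mt1 were Per1 (Pearson r = 0.969), 1700025G04Rik (0.960), Tsc22d3 (0.959), Dlk2 (0.954) and Zbtb16 (0.952). For Mt2 they were Plekha2 (0.968), Zbtb16 (0.941), Atp1b1 (0.931), Arhgef26 (0.927) and Spsb1 (0.924). For Slc39a8 they were Atp1b1 (0.989), Ndrg2 (0.968), Krt7 (0.960), Fdx1 (0.952) and Pcdh20 (0.946). Mt1 and Mt2 correlated at 0.873, Mt2 and Slc39a8 at 0.905, and Mt1 and Slc39a8 at 0.787. Mtf1 reached 0.613 with Mt1, and Slc39a10 -0.39. These correlations share the same 12 arrays, treatment groups and hybridization days, and are given as descriptions.

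Markers of other cell types were set beside these values. The summed intensity of the measured osteoblast markers (4 of 7 expressed) was 1420 to 2002 in vehicle and 2525 to 3745 with DEX at 24 hrs, and at 6 hrs it was 1437 to 1805 and 1877 to 2041. Ibsp made up most of it, and none of the 4 passed limma's test at 24 hrs, with 0.216 as the lowest adjusted p. These genes are not particular to osteoblasts. The study found Ibsp in its gene set from chondrocyte micromass cultures, and it cites a link of Dmp1 to chondrocyte differentiation. With the replicate block Alpl, the alkaline phosphatase of mineralizing cells, passed at 24 hrs (adjusted p = 0.0409), and with the hybridization day block Ibsp (0.0304) and Dmp1 (0.0466) did. Dmp1, however, read 22.0 to 155 with DEX at 24 hrs and at most 15.1 in every other group. It counted as expressed only through that DEX group, so the filter itself favoured a higher DEX value and its call adds little. For adipocyte markers (3 of 7 expressed) the sums were 607 to 780 in vehicle and 1588 to 2063 with DEX at 24 hrs, and 793 to 1778 against 1198 to 2334 at 6 hrs. Fabp4, a fatty acid binding protein, made up most of the DEX sum at 24 hrs, with 1171 to 1756. It rose over both times in limma (2.17, adjusted p = 0.0396), but did not pass with no expression filter (0.138). The other expressed markers, Pparg (0.17) and Lpl (-0.35), did not pass over both times, and Lpl was lower with DEX. Adipoq and Lep read at most 10.2 and 6.45 on any array. All 10 tendon and perichondrial fibroblast markers were expressed, with sums of 15390 to 17813 in vehicle and 14135 to 20901 with DEX at 24 hrs, and 11324 to 19610 against 12087 to 19613 at 6 hrs. None passed (lowest adjusted p 0.573 at 24 hrs), but with the replicate block Postn, the matrix protein periostin, rose at 24 hrs (log2 difference 1.40, adjusted p = 0.00364) and over both times (1.01, adjusted p = 0.00136). It read 257 to 722 in vehicle and 603 to 2020.1 with DEX at 24 hrs. Skeletal muscle markers (8 of 10 expressed) summed to 531 to 1259 in vehicle and 532 to 999 with DEX at 24 hrs, and to 610 to 915 and 609 to 966 at 6 hrs. None of them passed, also with the replicate block (lowest adjusted p 0.0559 at 24 hrs), and with the hybridization day block Myod1, a muscle transcription factor, fell at 24 hrs (-0.57, adjusted p = 0.0316). Macrophage marker sums (6 of 10 expressed) were 800 to 1007 in vehicle and 667 to 821 with DEX at 24 hrs, and 739 to 1022 against 742 to 904 at 6 hrs. Over both times the 6 had log2 differences of -0.37 to -0.13. None passed there in limma (lowest adjusted p 0.531), also with the replicate block (lowest adjusted p 0.0773). The part of such cells in the metallothionein and zinc carrier values was not tested.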

How the data were processed

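RNA of primary mouse chondrocytes was measured on 12 Affymetrix MOE 430 2.0 arrays. The authors used the GC-RMA algorithm of GeneSpring GX (GCRMA in the submitters' processing notes, without a version), and the deposited values are linear intensities. Gene symbols came from the platform annotation (34958 of 45101 probe sets with 1 symbol, 932 with several, 9211 unnamed here). All later steps used log2 of the intensity, with nothing added. A probe set entered the tests when the mean of at least 1 group reached 50, which 20897 did. The model in limma 3.58.1 (R 4.3.3) had a mean for every group, was fitted to the 12 arrays together without a block (lmFit, then eBayes), and p was adjusted by Benjamini-Hochberg over all 20897, with a threshold of 0.05. The fit was tested on simulated data. Tables, motif searches and figures were made in Python 3.11.15 with matplotlib 3.10.9. Arrays have no read depth, so that the number of arrays limits the precision.

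The genes described and the gene lists were chosen with earlier results of these data known. The named genes are all 10 described, the list genes that passed or, where none did, up to 4 with the largest difference over both times, and the 5 most like Mt1, Mt2 and Slc39a8. Groups and replicate numbers came from the sample titles. The array information calls the 6 hrs replicate titled 4 by the number 3, and the titles were followed. The array files gave 4 hybridization days, each with DEX and vehicle. The 24 hrs arrays of replicate 2 were on day 1 and those of replicates 1 and 4 on day 2. Of the 6 hrs arrays, replicates 1 and 2 were on day 3 and replicate 4 was on day 4. To see whether equal numbers mark pairs, each array's deviation from its group mean was correlated between DEX and vehicle. This gave 0.681, 0.632 and 0.863 (replicates 1, 2 and 4) for the earlier time and 0.158, 0.301 and 0.22 for the later. Arrays with unequal numbers were not correlated, and the DEX and vehicle arrays of a number shared a hybridization day. The check therefore cannot tell a pair from a shared day. That equal numbers mark pairs within a time was taken as an assumption. The pairs served for the pair differences and for the replicate block, which is an alternative, and not for the fit described above. Across the times the correlations were between -0.0434 and 0.0892, and no pairing was used there. Alternatives were blocks for pair or day, other filters, 16 added before log2, quantile normalization, each array left out and, chosen after seeing the data, the third hybridization day left out.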

Additional observations from a re-analysis of the deposited data

How the results depend on the processing

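Mt1, Mt2 and Slc39a8, chosen with these differences known, had the same direction at both times under all 23 alternatives each: Mt1 from 2.90 to 3.86 at 6 hrs and 1.86 to 2.13 at 24 hrs, Mt2 from 1.66 to 3.14 and 1.63 to 1.92, and Slc39a8 from 2.15 to 2.57 and 2.96 to 3.54, on the log2 scale. Many of these alternatives cannot change such a difference. They are the blocks, the expression filters, the fit of only the arrays compared and leaving out arrays of the other time. The same direction under them is therefore no support. Slc39a10 at 24 hrs ran from -1.20 to -0.69, and at 6 hrs from -0.49 to 0.34. The difference of Mt1 between the times ran from -1.88 to -0.92. The hybridization day block also brought Gclc past the threshold at 6 and 24 hrs. Gclc over both times ran from 0.91 to 1.11 with adjusted p from 0.00153 to 0.168 (the highest with no expression filter). The vehicle time difference of Slc39a14 turned to 0.08 without the third hybridization day.

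Counts of called probe sets, 47 at 6 hrs, 60 at 24 hrs, 156 over both times, 0 for the difference and 2 for time in vehicle, moved as follows. The replicate block gave 189, 449, 668 and 1, and across the time points 0 for vehicle. The hybridization day block gave 198, 455 and 600. No expression filter gave 18, 22, 73 and 1. Only the arrays compared gave 0 at 6 hrs (467 at an unadjusted p under 0.05) and 163 at 24 hrs. A Welch test of each time on its own gave 0 and 0 (473 and 1716 unadjusted). It used the probe sets and threshold above, unlike the Welch ANOVA of the methods, which took both times and its own filter and cut-off and was not rerun. The third day alone gave 2 at 6 hrs. Adding 16 gave 37 and quantile normalization 85 for time in vehicle. Without the third day it was 163 at 24 hrs, 8 for the difference and 211 for time in vehicle. Leaving out 1 array gave 18 to 38, 16 to 88, 90 to 156, 0 to 0 and, for time in vehicle, 0 to 6623 (without vehicle replicate 4 at 6 hrs; without DEX replicate 4 at 6 hrs it was 2959). The cause was not tested.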
